A study of Mus musculus with 9 samples.

Results

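The simple-epithelial keratins described here are 6 genes: Krt7, Krt8, Krt18, Krt19, Krt20 and Krt23. They are 6 of 19938 genes measured on 9 whole-transcript mouse arrays, each read from a probe set that the platform's annotation gives to that symbol alone. Probe sets were to be chosen by their mean level on the 9 arrays, the highest being kept, but each of these genes had 1, so no measured value decided among them. The family itself was selected on earlier results of these data, and the p-values below describe it rather than support it. The arrays fall into 3 groups of 3. WT liver came from C57Bl/6 mice that carried loxP-flanked Notch1 alleles (Notch1 lox/lox) and no Cre. KO liver came from MxCre Notch1 lox/lox mice of that background, in which an interferon-responsive promoter switches on Cre, in many cell types, to delete the Notch1 exon that encodes the signal peptide. Mice of both genotypes received 300 µg of polyinosinic-polycytidylic acid at 4 weeks of age, on days 0, 3 and 6. No source used here states the age at sampling. The AS cell lines are 3 independently derived angiosarcoma lines, each grown by long-term culture from hepatic endothelial cells of knockout animals whose angiosarcoma, a tumour of vessel-lining cells, was visible. Only the KO groups carried Cre, so an effect of Cre and loss of Notch1 cannot be told apart, and a line differs from liver in culture as well as in origin. The extraction protocol names PHH, left unexplained, so whether whole liver or a part of its cells was extracted is not settled.

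Keratins are the intermediate filament proteins of epithelial cells. A filament forms from equal parts of a type I keratin (here Krt18, Krt19, Krt20 and Krt23) and a type II keratin (here Krt7 and Krt8), so a cell needs a partner of each type. Adult hepatocytes rely on Krt8 with Krt18, bile duct cells add Krt7 and Krt19, Krt20 marks gut epithelium and the umbrella cells of the bladder, and Krt23 is known from ductular cells of injured liver. Endothelial cells build their filaments mainly from vimentin.

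Promoter windows from RefSeq on GRCm38.p6, from 250 bases before to 50 bases after the annotated start, were found for 5 of the 6 genes. Krt19 had no window and does not enter the counts below. The windows of Krt7, Krt8, Krt18 and Krt20 are shown because these genes, like Krt19, were high together in the AS lines. Krt8 and Krt18 are direct neighbours among protein-coding genes on chromosome 15, where Krt7 also lies, while Krt19, Krt20 and Krt23 lie on chromosome 11, Krt20 next to Krt23. The sequences read 5′ to 3′ on the gene's strand, with Krt7 at chr15:101412153-101412452 (plus strand), Krt8 at chr15:102004293-102004592 (minus), Krt18 at chr15:102027966-102028265 (plus) and Krt20 at chr11:99438104-99438403 (minus). Capitals mark matches, on either strand, to the TATA box letters TATAAA, to the GC box letters GGGCGG and to CACCTG, the E-box letters that Snail and Zeb factors can bind. The AP-1 letters TGANTCA were searched on both strands too.
Krt7: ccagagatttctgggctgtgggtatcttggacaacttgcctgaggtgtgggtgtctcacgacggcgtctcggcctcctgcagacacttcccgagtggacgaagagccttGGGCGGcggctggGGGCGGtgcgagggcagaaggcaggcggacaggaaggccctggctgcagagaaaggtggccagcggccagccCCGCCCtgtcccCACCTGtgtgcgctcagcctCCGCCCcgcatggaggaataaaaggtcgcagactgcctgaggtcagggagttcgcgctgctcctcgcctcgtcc
Krt8: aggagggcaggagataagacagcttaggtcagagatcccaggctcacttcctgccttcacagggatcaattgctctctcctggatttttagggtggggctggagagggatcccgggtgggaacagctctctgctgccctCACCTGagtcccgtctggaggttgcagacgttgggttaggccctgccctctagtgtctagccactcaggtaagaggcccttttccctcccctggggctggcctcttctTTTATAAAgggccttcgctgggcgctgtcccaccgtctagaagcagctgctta
Krt18: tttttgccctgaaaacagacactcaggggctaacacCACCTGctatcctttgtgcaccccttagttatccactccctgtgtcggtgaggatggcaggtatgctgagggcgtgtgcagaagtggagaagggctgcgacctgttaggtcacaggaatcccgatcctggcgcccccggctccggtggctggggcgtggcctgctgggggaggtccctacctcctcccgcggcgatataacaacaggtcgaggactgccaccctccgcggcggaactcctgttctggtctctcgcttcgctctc
Krt20: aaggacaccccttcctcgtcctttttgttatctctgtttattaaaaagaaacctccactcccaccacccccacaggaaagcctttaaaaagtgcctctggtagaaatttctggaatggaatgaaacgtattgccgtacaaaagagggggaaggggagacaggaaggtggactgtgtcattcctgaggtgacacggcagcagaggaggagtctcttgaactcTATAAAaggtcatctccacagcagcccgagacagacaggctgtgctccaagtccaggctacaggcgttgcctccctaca
TATAAA stood 29 bases before the start of Krt20. In Krt8 it was found on both strands in overlapping letters, 1 and 3 bases before the annotated start, and the windows of Krt18 and Krt7 held no match. Among all 32851 windows of this length, 13.6% held it. The Krt7 window held 4 GC boxes, letters found in 35.7% of all windows and in no other of the 5 keratin windows. CACCTG was in 4 of 5 windows (Krt7, Krt8, Krt18 and Krt23) and in 20.2% of all, and TGANTCA in 0 of 5 and in 7.81% of all. These matches describe letters only and show no binding.

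Expression is given in log2 units from robust multi-array averaging, after which all arrays share nearly 1 distribution, and a difference is a log2 ratio between groups for 1 probe set. The median over the 19938 genes ran from 6.96 to 7.17 per array; the files carry no detection calls, and levels below it may be near background, where a fold change understates the true ratio. Notch1 was at 11.69, 11.02 and 11.71 in WT liver replicates 1, 2 and 3 and at 7.84, 8.75 and 8.52 in KO liver replicates 1, 2 and 3, with no overlap. The AS lines had Notch1 at 8.75, 8.61 and 7.83. KO replicate 3 stood apart in sex-linked genes, with the Y-linked Eif2s3y at 8.66 and Uty at 8.35 against at most 4.06 and 4.33 on the other 8 arrays. Endothelial markers were low in the lines: the mean of 21 genes was 6.23 to 6.58 there against 11.25 to 11.75 in the livers. Against each liver group 21 of 21 passed as lower by the test given below. Over all genes 10.1% were called lower over KO liver and 11.1% over WT liver. In every line 14 of the 21 were below the array median. The number of arrays, 3 per group, limits the precision of every value. In these bulk samples, fewer cells of a type and less RNA per cell cannot be told apart.

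Krt7, Krt19 and Krt20 were low in every liver and high in every AS line. Krt19, the type I keratin of bile ducts, was at 6.76, 6.42 and 6.19 in WT liver, at 5.67, 5.72 and 5.83 in KO liver, and at 11.82, 12.18 and 11.93 in the AS lines. Krt20 was at 5.30, 5.35 and 5.15 in WT liver, at 5.21, 5.16 and 5.23 in KO liver, and at 11.04, 10.95 and 10.86 in the lines. Krt7, a type II keratin of ducts and glands, was at 6.27, 6.22 and 6.10 in WT liver, at 6.03, 5.78 and 5.97 in KO liver, and at 12.25, 10.46 and 11.70 in the lines. All 6 liver values of each gene were below the array median and all 3 lines were far above it. The lines had nearly equal levels of Krt20 (SD 0.09, n = 3) and Krt19 (SD 0.18, n = 3), whereas Krt7 was lowest in line 2 and spread over 1.80 log2 units (SD 0.92, n = 3).

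The hepatocyte keratins Krt8 and Krt18 were well above the array median in most livers and higher still in the lines. Krt8 was at 11.13, 11.71 and 11.36 in WT liver, at 9.23, 11.15 and 8.32 in KO liver, and at 13.36, 13.14 and 13.23 in the AS lines. Its type I partner Krt18 was at 10.39, 11.19 and 11.23 in WT liver, at 8.91, 11.30 and 7.40 in KO liver, and at 13.20, 13.07 and 13.04 in the lines. WT livers and lines were each tight, with SDs of 0.29 and 0.11 for Krt8 and 0.47 and 0.09 for Krt18 (n = 3 each). KO livers spread widely, with SDs of 1.45 and 1.97 (n = 3): KO replicate 2 lay near the WT level, and replicates 1 and 3 lay below every WT array. Krt23 was low throughout, at 6.03, 5.58 and 5.54 in WT liver, at 5.26, 5.45 and 5.36 in KO liver, and at 5.27, 5.85 and 6.10 in the lines.

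**Figure D1:**
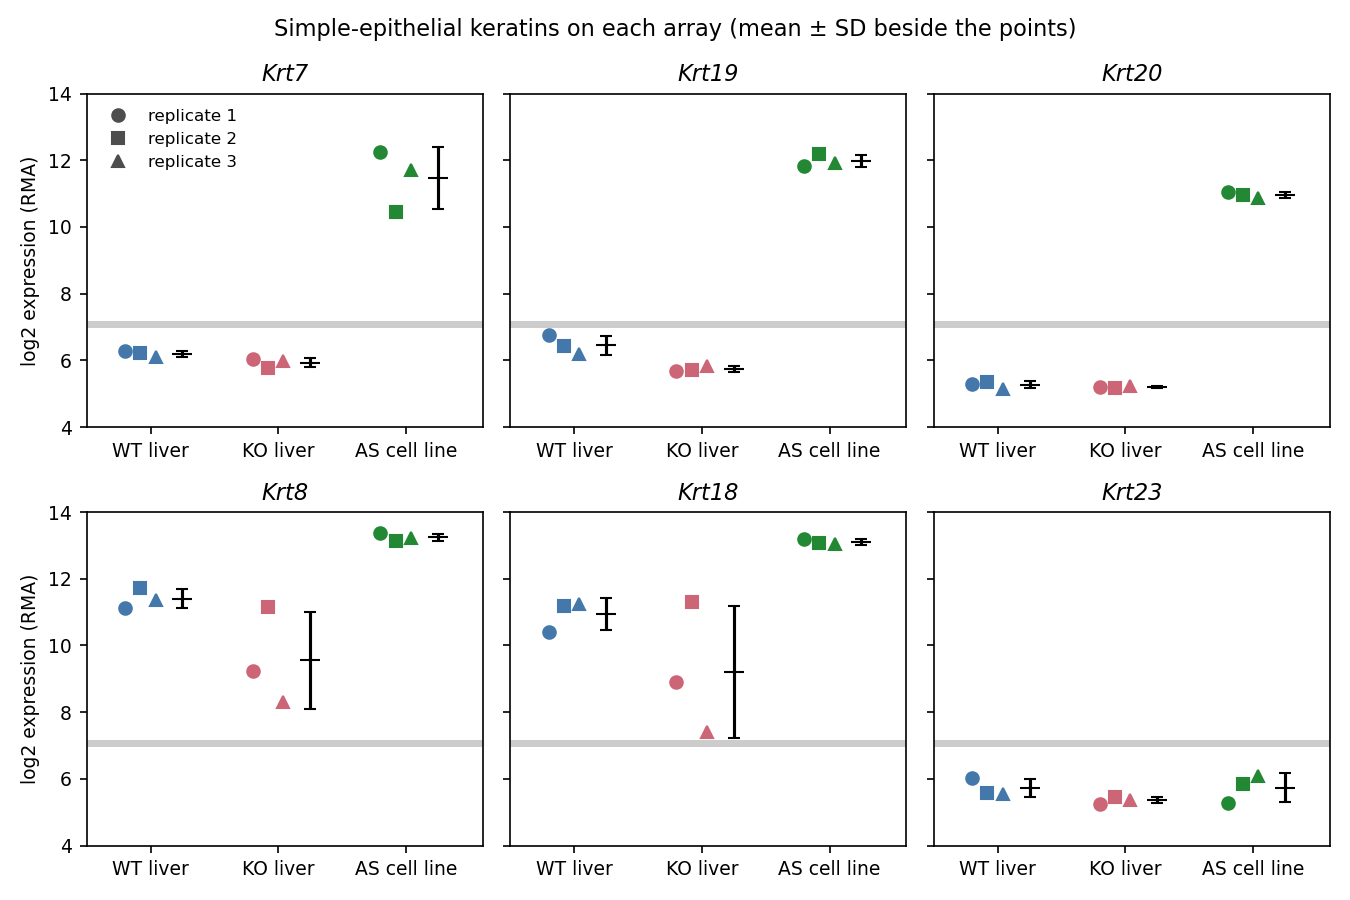
Log2 expression of the 6 keratins on each of the 9 arrays, by group, with the group mean and SD (n = 3) to the right of the points; marker shapes give the replicate and the grey band spans the array medians of 6.96 to 7.17. Krt7, Krt19 and Krt20 sit below the band in the 6 livers and between 10.46 and 12.25 in the lines, Krt8 and Krt18 are above the band in all 9 arrays and lowest in KO replicates 1 and 3, and Krt23 stays below the band.

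From WT to KO liver, all 6 keratins had lower means (50.2% of all genes did), and 0 passed the test. The test was limma on the 6 arrays at an adjusted p of 0.05 (Benjamini-Hochberg, across the 19938 genes); it called 0% of all genes in this comparison (0 of 19938), and 22.5% had an unadjusted p under 0.05, as did 3 of the 6 keratins (Krt7, Krt8 and Krt19). The median difference over the keratins was -0.54, against 0.00 over all genes. In 3 keratins, Krt7, Krt19 and Krt23, every KO array was below every WT array, where 11.1% of all genes showed this. Of 46 other keratins, 38 had lower means in KO liver as well, with a median difference of -0.06. In 8 of those 46 every KO array was below every WT array. The direction was thus not particular to these 6 genes. The mean of Krt19 was 6.45 ± 0.28 (SD, n = 3) in WT and 5.74 ± 0.08 (SD, n = 3) in KO liver, a log2 difference of -0.71 with a 95% interval of -1.09 to -0.34 (limma adjusted p = 0.108). Krt7 differed by -0.27 (interval -0.50 to -0.04, limma adjusted p = 0.174) and Krt23 by -0.36 (interval -0.73 to 0.01, limma adjusted p = 0.231), both among low values. Krt20 differed by -0.07 (interval -0.26 to 0.12), a sign that turned to 0.03 with repeated quantile normalization.

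Krt8 and Krt18 had the largest differences and the widest intervals of the 6 between KO and WT liver. The interval ran from -3.62 to -0.04 for Krt8 (limma adjusted p = 0.214) and from -4.18 to 0.71 for Krt18 (limma adjusted p = 0.343), and the arrays overlapped through KO replicate 2. Without KO replicate 2 the differences were -2.63 and -2.78 and passed the threshold (limma adjusted p = 0.0239 and 0.0471). That setting called 1949 of the 19938 genes. Without KO replicate 3 they were -1.21 and -0.83. With limma's array weights, which gave KO replicate 2 a weight of 0.315 and WT replicate 1 a weight of 0.274, Krt8, Krt18 and Krt19 passed (adjusted p = 0.0144, 0.0285 and 0.0128). The weighted fit called 5744 of the 19938 genes, so these calls are not particular to the keratins. The low arrays were those low in hepatocyte genes. Relative to the WT mean, Krt8 stood at -2.17, -0.25 and -3.08 in KO replicates 1, 2 and 3, Krt18 at -2.02, 0.36 and -3.54, and the mean of 21 hepatocyte genes at -2.06, 0.37 and -3.10. All 21 hepatocyte genes had negative differences, 1 of them without overlap of the arrays. The part of the hepatocyte genes, and of sex in KO replicate 3, in the Krt8 and Krt18 differences was not tested. Krt19 and the mean of the bile duct genes, though not each of these genes, were below the WT mean in all 3 KO livers. The mean of 16 bile duct genes, keratins left out, stood at -0.53, -0.48 and -0.49 in the 3 KO replicates and Krt19 at -0.78, -0.74 and -0.62. Of those 16 genes, 11 had every KO array below every WT array and 0 passed the threshold (limma, unadjusted p under 0.05 in 11). The part of these genes in the Krt19 difference was not tested. The mean of the mesothelial genes was also below the WT mean in all 3 KO livers (-0.19, -0.27 and -0.24). So was that of the leukocyte genes (-0.68, -0.26 and -0.62), whereas those of the endothelial and stellate cell genes were not. In KO replicate 2, where Krt19 was below every WT array, Krt8 lay within the WT range and Krt18 above it.

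**Figure D2:**
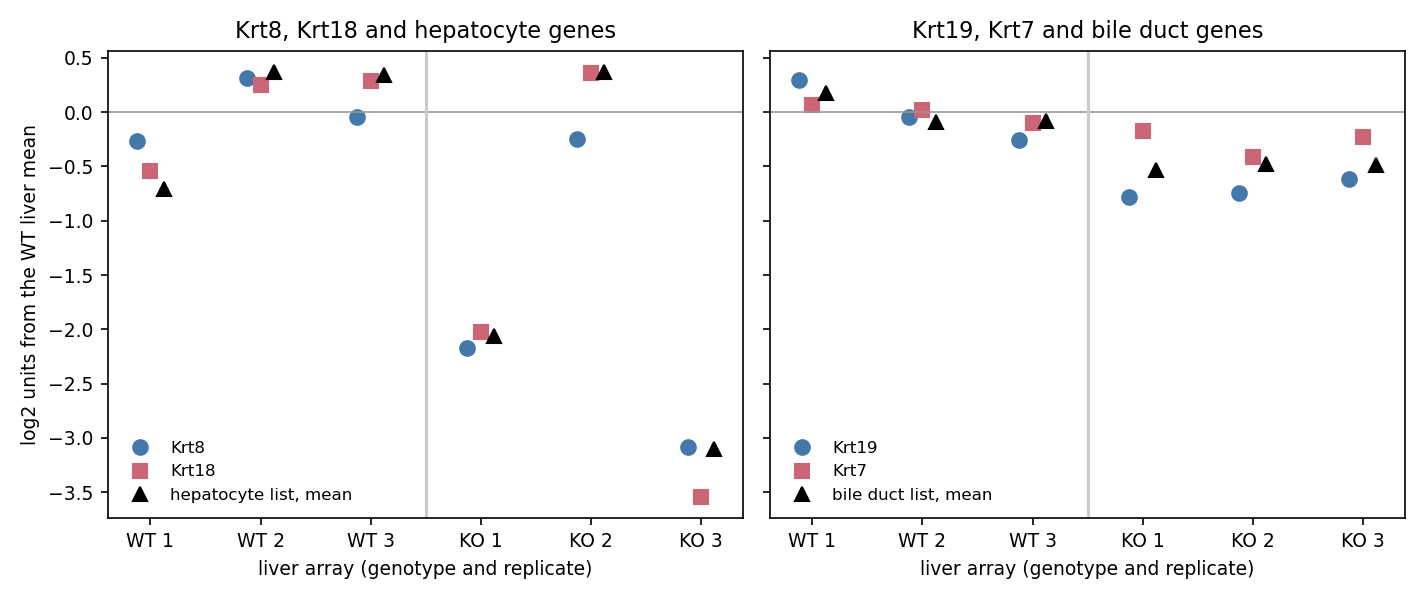
Distance of each liver array from the WT liver mean, in log2 units, for Krt8, Krt18 and the mean of 21 hepatocyte genes (left) and for Krt19, Krt7 and the mean of 16 bile duct genes without keratins (right). On the left the points fall together in KO replicates 1 and 3, down to -3.54 for Krt18, and return to the WT level in KO replicate 2; on the right all 3 KO replicates lie below the WT mean by at most 0.78.

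In the AS lines, 5 of the 6 keratins were higher than in either liver group and Krt23 was not. Against KO liver 5 passed the threshold as higher (limma, where 11.4% of all genes were called higher), and in these 5 every line was above every KO liver (24.1% of all genes). Against WT liver 5 passed as higher too (17.6% of all genes), and the same number did not overlap (28.3% of all genes). The AS lines enter both comparisons, which are therefore not independent. The median difference over the 6 keratins was 4.72 against KO and 3.72 against WT liver, and that over all genes 0.05 and 0.02.

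Krt19 rose 75.4-fold over KO liver, by 6.24 log2 units (SE 0.115, limma adjusted p = 2.44e-05), which was rank 3 of 19938 genes ordered from the largest rise. Over WT liver it rose 46.0-fold (5.52, SE 0.178, limma adjusted p = 2.75e-05), at rank 8. Krt20 rose 53.8-fold over KO and 51.3-fold over WT liver, by 5.75 (SE 0.0752) and 5.68 (SE 0.0975), at ranks 6 and 4 (limma adjusted p = 1.47e-05 and 7.04e-06). Krt7 rose 46.7-fold and 38.7-fold, by 5.54 (SE 0.466) and 5.27 (SE 0.453), at ranks 10 and 11 (limma adjusted p = 0.00142 and 0.000860). Only 12 of the 19938 genes were at least 5 log2 units higher in the lines than in each liver group, and these 3 keratins were among them. Krt7 and Krt19 kept their calls under the 16 alternatives and Krt20 under 15, since the filter on dim genes left Krt20 out, with differences between 4.88 and 6.32.

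Krt8 and Krt18 rose from a higher base. Over WT liver Krt8 rose 3.59-fold, by 1.85 (SE 0.166, limma adjusted p = 0.00102), and Krt18 4.49-fold, by 2.17 (SE 0.242, limma adjusted p = 0.00217). Over KO liver the rises were 12.8-fold (3.68, SE 0.724, limma adjusted p = 0.0212) and 14.9-fold (3.90, SE 0.980, limma adjusted p = 0.0447). The calls over KO liver rest on few arrays. Krt8 no longer passed without KO replicate 1 (limma adjusted p = 0.0851) or without line 1, 2 or 3 (0.0603, 0.0582 and 0.0610). Krt18 no longer passed without KO replicate 1 or 3 (0.144 and 0.0804) or without line 1, 2 or 3 (0.104, 0.105 and 0.106). The differences then stayed between 3.00 and 3.93. With all 9 arrays in 1 fit, where the KO spread enters, the calls over WT liver ended at adjusted p = 0.0533 for Krt8 and 0.0865 for Krt18. Every line was above every liver of both genotypes for both genes. Krt23 differed by 0.38 from KO liver (interval -0.19 to 0.95, limma adjusted p = 0.308) and by 0.02 from WT liver (interval -0.61 to 0.65, adjusted p = 0.964), a sign that turned under 5 of 15 alternatives, and passed against KO liver only without line 1 (0.62, adjusted p = 0.0300).

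**Figure D3:**
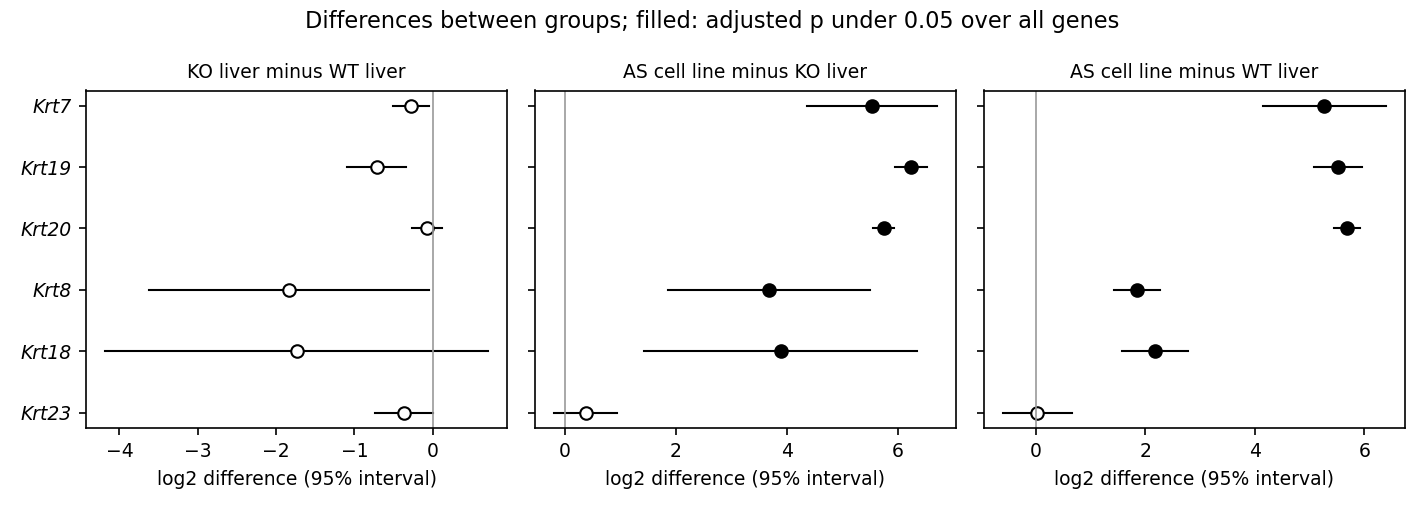
Log2 differences between group means with 95% intervals from limma for the 6 keratins in the 3 comparisons; filled points passed an adjusted p of 0.05 over all genes. No point is filled between the liver groups, 5 of 6 are filled in each comparison with the lines, and the intervals of Krt8 and Krt18 are widest wherever KO liver takes part.

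For the order of group levels, Krt8, Krt18 and Krt19 had means falling from line to WT to KO liver, as did Krt7, Krt20 and Krt23. For Krt23 none of the 3 groups could be told from another by the threshold, and for the other 5 WT and KO liver could not.

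Few of the other keratins passed, and by small differences. Of 46 other keratins measured, those of skin, hair and other stratified epithelia among them, 3 passed as higher over KO liver (Krt33a, Krt10 and Krt4) and 1 over WT liver (Krt10), with 0 lower in either. Over all genes 11.4% were called higher over KO liver and 17.6% over WT liver. The largest of these differences was 0.47, for the hair keratin Krt33a over KO liver (SE 0.0979, limma adjusted p = 0.0248). Krt10, a keratin of the upper epidermis, differed by 0.45 and 0.42 (limma adjusted p = 0.0453 and 0.0378). Without KO replicate 1, 2 or 3 none of the 46 passed over KO liver, and the Krt10 call over WT liver ended without any 1 WT liver or without line 1 or 3. The median differences were 0.11 and 0.04, and 44 of 46 were below the array median in every line. Krt80, the neighbour of Krt7 on chromosome 15, was at 8.05, 7.28 and 7.85 in the lines and 7.14 to 7.47 in the livers, and did not pass (adjusted p = 0.210 and 0.269), except without line 2 (0.0254 over KO and 0.0433 over WT liver).

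**Figure D4:**
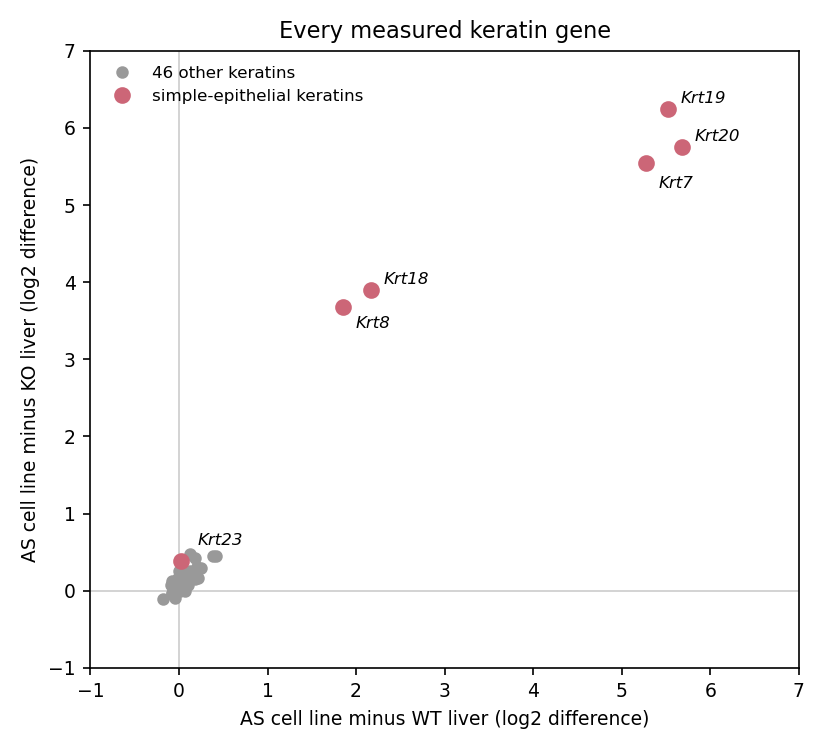
Log2 differences of the AS lines from WT liver (horizontal) and from KO liver (vertical) for the 6 simple-epithelial keratins and the 46 other keratins; the lines are shared by the axes. Krt7, Krt19 and Krt20 lie above 5 on both axes, Krt8 and Krt18 lie near 2 and 4, and Krt23 lies with the other keratins near 0.

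Over the 9 arrays the profile of Krt8 was near that of Krt18, those of Krt7, Krt19 and Krt20 were near each other, and that of Krt23 was near none. As a measure of likeness, each gene was centred on its own mean and the root mean square difference between profiles was taken, in log2 units over 9 arrays. Krt8 and Krt18 differed by 0.32 and Krt19 and Krt20 by 0.32, Krt7 and Krt20 by 0.46 and Krt7 and Krt19 by 0.61, whereas Krt8 differed from Krt7, Krt19 and Krt20 by 1.64 to 1.72. Krt23 was at 1.54 from Krt8, 1.76 from Krt18, 2.52 from Krt7, 2.62 from Krt20 and 2.69 from Krt19. Outside the keratins, 17144 genes were compared. Nearest to Krt19 were Sprr1a (0.20), a cornified envelope precursor, and Msln (0.33), the mesothelial surface protein mesothelin. Nearest to Krt20 were Msln (0.24), Cpe (0.26), which encodes carboxypeptidase E, and Sprr1a (0.28). Nearest to Krt7 were the secreted guidance factor Sema3c (0.24), the tetraspanin Tspan8 (0.28) and the acyltransferase Mboat1 (0.38), each lowest in line 2 among the lines, as was Krt7. Nearest to Krt8 were Echdc2 (0.42), Mal2 (0.44), which acts in apical transport of epithelial cells, and Atp1b1 (0.46), a sodium pump subunit. Nearest to Krt18 were Mal2 (0.32), the desmosomal gene Perp (0.36) and the sulfotransferase Sult1d1 (0.42). Mal2 was at 6.82, 9.49 and 5.81 in KO replicates 1, 2 and 3, low in the same arrays as Krt18. All these distances share the step between livers and lines.

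Part of the genes for proteins that anchor keratin filaments at the cell border had higher RNA levels in the lines. Of 21 desmosome, hemidesmosome and plakin genes measured, 8 passed as higher and 1 as lower over WT liver, with a median of 0.51; over all genes 17.6% were called higher and 11.1% lower there, and 11.4% and 10.1% over KO liver. Periplakin (Ppl), which links keratins to the membrane, was at 9.99, 10.60 and 10.65 in the lines and 6.93 to 7.04 in WT liver, a rise of 3.42 (SE 0.194, limma adjusted p = 0.000197). Desmoplakin (Dsp), the linker at desmosomes, rose by 3.07 (limma adjusted p = 0.000264), and Perp by 2.49 (adjusted p = 0.00818; 0.0677 with all 9 arrays in 1 fit). Plakophilin 2 (Pkp2), another desmosomal plaque gene, rose by 1.99 (adjusted p = 0.00713). The gene that fell was the microtubule and actin linker Macf1, by 1.47 on the log2 scale. Over KO liver 7 rose and 1 fell. Dsp rose by 3.63 (adjusted p = 0.0133; 0.0596 without KO replicate 1), and Perp differed by 3.61 (adjusted p = 0.0566; 0.00174 without KO replicate 2). The 8 calls over KO liver became 3 without KO replicate 1, 5 without KO replicate 3 and 5 without line 2.

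Epithelial adhesion and tight junction genes were mixed. Of 19 measured, 6 passed as higher and 1 (Cldn7) as lower over WT liver, with a median of 0.22. All-gene shares were 17.6% higher and 11.1% lower there, and 11.4% and 10.1% over KO liver. Cldn7, a claudin of tight junctions, fell by 0.51 on the log2 scale (limma adjusted p = 0.0229) and no longer passed without WT replicate 1, 2 or 3 (0.0619, 0.0691 and 0.0661). The lowest difference of the list was that of another claudin, Cldn1, at -1.69, which did not pass (limma adjusted p = 0.240). Cldn1 was at 9.70, 6.38 and 7.51 in lines 1, 2 and 3. It passed without line 1 (-2.61, limma adjusted p = 0.0426) and with array weights (-2.49, limma adjusted p = 0.0274). E-cadherin (Cdh1), the adhesion protein of epithelia, was at 11.43, 10.96 and 11.64 in the lines, 8.09 to 8.43 in WT and 6.48 to 6.94 in KO liver, a rise of 3.06 over WT and 4.67 over KO liver (limma adjusted p = 0.000335 and 0.000214). The protease inhibitor Spint2 rose by 1.48 over WT and 2.11 over KO liver. The tricellular junction receptor Lsr rose by 1.82 over WT liver (adjusted p = 0.0237), and not past the threshold without WT replicate 2 (0.0503), line 1 (0.0541) or line 3 (0.0714). Epcam, an adhesion molecule of many simple epithelia, was at 5.71, 5.56 and 6.02 in the lines, below the array median, and did not pass over either liver group. Over KO liver 7 rose and 0 fell. The counts moved to 3 without WT replicate 2 and 4 without WT replicate 3 over WT liver, and to 3 without KO replicate 1, 2 without KO replicate 3 and 4 without line 3 over KO liver.

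Few other intermediate filament genes passed. Of 16 measured, 1 rose and 1 fell over WT liver (4 calls in all without line 2): the nuclear lamin Lmna rose by 1.76 (limma adjusted p = 0.00389) and desmin (Des) of muscle and stellate cells fell by 1.37 on the log2 scale (adjusted p = 0.0107). The shares over all genes were 17.6% higher and 11.1% lower over WT liver, and 11.4% and 10.1% over KO liver. Vimentin (Vim), the filament of endothelial and mesenchymal cells, was at 13.26, 13.06 and 13.47 in the lines and 12.87 to 13.09 in the livers, with differences of 0.32 from WT and 0.26 from KO liver that did not pass (adjusted p = 0.120 and 0.235). All 3 lines thus had Krt8, Krt18 and Vim above 13. Nestin (Nes) differed by 1.71 from WT liver (adjusted p = 0.0663), and passed without line 2 or 3 (0.0297 and 0.0304). Its mean was 8.81 both in the lines and in KO liver, against 7.11 in WT liver. Over KO liver 3 rose (Lmna, Ina and Prph) and 1 fell (Des); without KO replicate 1, 2 or 3 neither Ina nor Prph passed, nor did Ina without line 3 or Prph without line 1 or 2.

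Of 23 genes whose proteins bind, modify or aggregate with Krt8 and Krt18, 12 rose and 4 fell over WT liver, and 11 rose and 5 fell over KO liver (9 and 8 calls in all without KO replicate 1 and 3). Across all genes 17.6% were called higher and 11.1% lower over WT liver, and 11.4% and 10.1% over KO liver. The small heat shock protein Cryab rose by 3.22 over WT liver (limma adjusted p = 0.000351). The death receptor Fas fell by 3.66 on the log2 scale (adjusted p = 0.00164) and the inducible chaperone Hspa1a by 3.29 (adjusted p = 0.00390); the others that fell were the kinase Prkce, by 2.13, and Cflar, an inhibitor of death receptor signalling that fell over KO liver too (by 1.52; adjusted p = 0.0134, and 0.0596 without KO replicate 3). Of the 14-3-3 proteins, which bind phosphorylated Krt18, Ywhag rose by 1.16, Ywhah by 1.09 and Ywhae by 0.83 over WT liver. Others of this family differed less. Mean levels in WT liver and in the lines were 12.56 and 12.66 for Ywhaz, 11.38 and 11.37 for Ywhab, and 8.37 and 8.92 for Ywhaq. Casp6, a caspase that cleaves Krt18, rose by 1.15 and the ubiquitin ligase Stub1 by 1.16 over WT liver. Over KO liver Sfn, another 14-3-3 protein, fell too, by 0.82 (adjusted p = 0.0266), and not past the threshold without KO replicate 1, 2 or 3 (0.0897, 0.0788 and 0.0755) or line 2 (0.0634). From WT liver Sfn differed by -0.51 and did not pass (limma adjusted p = 0.0973).

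Among 27 regulators of epithelial identity, 5 rose and 3 fell over WT liver, and 4 rose and 3 fell over KO liver. These counts were near the shares over all genes. Those were 17.6% higher and 11.1% lower over WT liver, and 11.4% and 10.1% over KO liver. Sox9, a duct and progenitor factor, rose by 2.20 over WT and 3.05 over KO liver (limma adjusted p = 0.000543 and 0.000653). Foxa2, a factor of endodermal epithelia, rose by 2.09 over WT and 2.14 over KO liver (adjusted p = 0.000311 and 0.00794), and Klf5, a factor of proliferating epithelia, by 1.72 and 2.25 (adjusted p = 0.000266 and 0.000221). Elf3, an epithelial Ets factor, rose by 1.42 and 1.80, and Snai2, a Snail factor, by 1.32 over WT liver (adjusted p = 0.0406; 0.0641, 0.128 and 0.129 without WT replicate 1, 2 or 3 and 0.0559 without line 1). Zeb2, a repressor of epithelial genes, fell by 1.84 and 2.27 on the log2 scale (adjusted p = 0.00348 and 0.00142), and the related repressors Zeb1 and Snai1 fell by 1.51 and 1.24 over WT liver. Of 12 AP-1, Ets and related factors described as activators of keratin promoters, 1 rose and 7 fell over WT liver, with a median of -1.32. Fosb fell from 12.19 ± 0.55 to 6.54 ± 0.26 (SD, n = 3 each; limma adjusted p = 0.000162), Fos fell by 4.15 on the log2 scale and Jun by 3.21. The one that rose was Fosl1, by 1.27 (adjusted p = 0.0444). It no longer passed without WT replicate 1, 2 or 3 (0.136, 0.0816 and 0.133) or line 1 or 3 (0.0635 and 0.105). The count over KO liver was also 1 higher (Fosl1, not past the threshold without KO replicate 1, 2 or 3 or line 3) and 7 lower, and 5 in all without KO replicate 1 or 3.

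**Figure D5:**
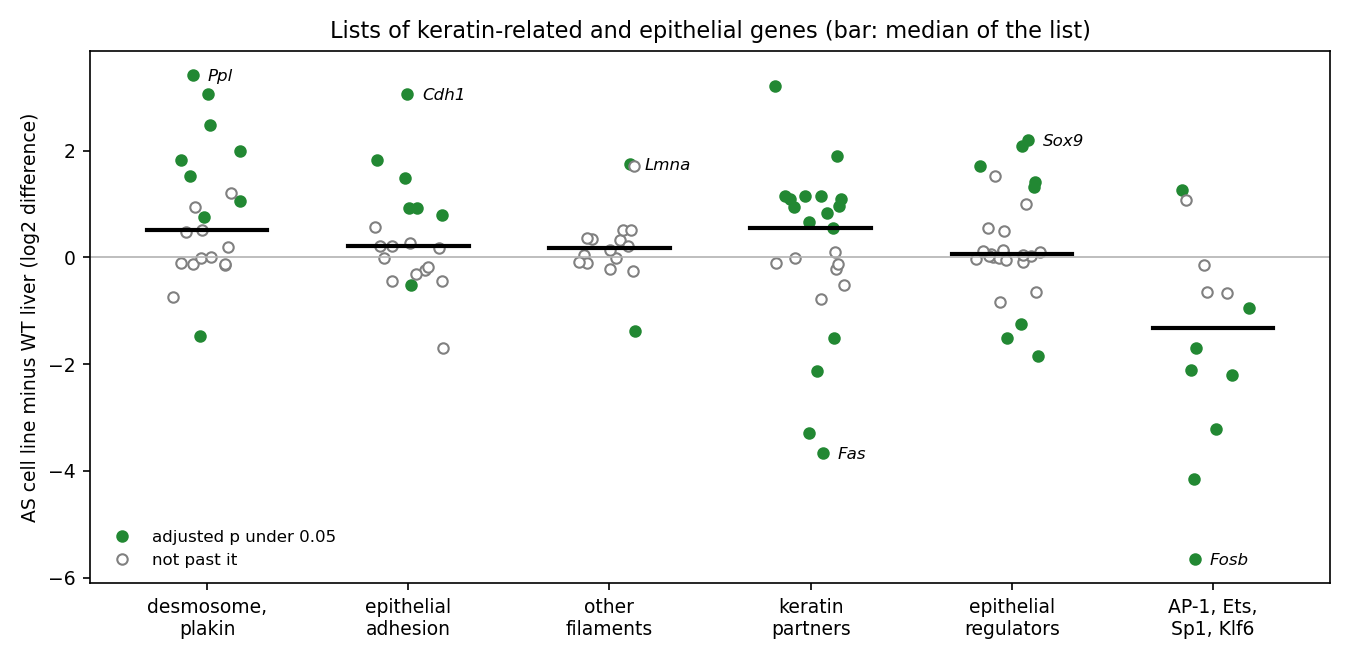
Log2 difference of the AS lines from WT liver for each gene of 6 lists, with the list median as a bar; filled points passed an adjusted p of 0.05 over all genes, and the gene of largest absolute difference is named. Desmosome genes reach 3.42 (Ppl), adhesion genes 3.06 (Cdh1), and the AP-1 and Ets list lies mostly below 0, down to -5.65 (Fosb).

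The other epithelial markers that stood high in the lines came from several cell types. For the lists below, the shares over all genes were 17.6% higher and 11.1% lower over WT liver, and 11.4% and 10.1% over KO liver. Of 16 mesothelial genes (keratins left out), 4 rose and 1 fell over WT liver and 5 rose over KO liver. The list mean was 7.45 to 8.03 in the lines and 6.44 to 6.75 in the livers, and 8 of 16 were below the array median in every line. The mesothelial genes that rose over both were Msln, Upk1b, the matrix protein gene Efemp1 and N-cadherin (Cdh2). Upk3b rose over KO liver, and Podxl, a podocyte and mesothelial sialomucin gene, fell over WT liver. Upk3b (adjusted p = 0.0456) did not pass without KO replicate 1, 2 or 3 (0.144, 0.117 and 0.120) or line 2 (0.0959), nor Podxl (0.0437) without WT replicate 1, 2 or 3 (0.126, 0.111 and 0.128) or line 1 (0.0523). Msln was at 11.65, 11.93 and 12.43 in the lines and at most 6.32 in the livers, and Wt1, a mesothelial transcription factor, at 6.78, 8.09 and 7.47. Of 11 urothelial genes, 4 rose over WT and 5 over KO liver (2 without any 1 WT liver; 2, 3 and 2 without KO replicate 1, 2 and 3). They were Sprr1a, Upk1b and Psca over both, Pparg over WT and Upk3b and Gata3 over KO liver. Psca no longer passed in either comparison, and Pparg over WT liver, without any 1 liver or without line 1 or 3, nor Gata3 without KO replicate 1 or 3. Upk1b and Upk3b, uroplakins that mesothelium also makes, stand in the mesothelial list too, and Upk1b was at 9.06, 11.89 and 11.51 in the lines. Upk2, a uroplakin of umbrella cells, was at 6.66, 6.74 and 6.90 there and did not pass over either liver group. Of the 16 bile duct genes, Cdh1 and Sox9 included, 8 rose and 2 fell over WT liver and 9 rose and 1 fell over KO liver, among them Tspan8 (5.56 and 5.67), Anxa13 (4.24 and 5.07) and the ciliary protein gene Pkhd1 (2.66 and 3.80). The water channel gene Aqp1 fell by 6.56 and 6.46 on the log2 scale, Cldn7 fell over WT liver, though not with any 1 WT liver left out, and 7 were below the array median in every line. Of 21 hepatocyte genes, 12 fell and 0 rose over WT liver (median -3.97), and 3 fell and 0 rose over KO liver (median -2.31). Their mean was 7.62, 9.29 and 7.53 in lines 1, 2 and 3 and 8.82 to 12.29 in the livers. In every line 8 of these 21 genes were above the array median and 7 were below it. Albumin (Alb), among the 9 that did not pass over WT liver, was at 12.31, 13.67 and 12.82 in the lines against 12.14 to 13.96 in the livers. Stellate cell and leukocyte lists were lower in the lines than in any liver, at 6.12 to 6.57 against 7.84 to 8.43 and 5.85 to 6.04 against 9.01 to 9.93. The part of any of these cell types in the keratin levels of the lines was not tested.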

How the data were processed

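RNA of 9 arrays was labelled with a whole-transcript kit from 250 ng, per the labels' protocols. Deposited were log2 values for each probe set; the submitters' processing notes name RMA and oligo, with no version. Of 35556 probe sets, 21789 were annotated with 1 gene, 1621 with several and 12146 were not in the annotation table. Gene IDs of 21698 matched RefSeq, which changed 0 symbols. Where a gene had several probe sets (999 genes), that of highest mean was used.

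Groups were compared pairwise with limma 3.58.1 (lmFit, eBayes, 2-sided) in R 4.3.3 on 6 arrays each, without covariates, adjusted over 19938 genes; the procedure was tested on simulated data. Figures used matplotlib 3.10.9. The labels name separate animals and independently derived lines, each counted as 1 replicate, and give no batch.

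The keratins and gene lists were chosen with earlier results of these data known, so their p-values are not independent evidence. Named were all 6 keratins, Notch1 and the 3 nearest profiles for keratins spanning at least 2 log2 units. For each comparison with the lines, the 3 genes of largest absolute difference per pathway list were named, and called genes where 5 or fewer passed. Between the livers, the genes of largest difference per list were not all named. The genes Vim, Epcam, Fosl1, Macf1, Cldn7, Pkp2, Prkce, Cflar, Elf3, Snai2, Zeb1 and Snai1 were chosen after their values were seen. So were Sfn, Ywhag, Ywhah, Ywhae, Ywhaz, Ywhab, Ywhaq, Casp6, Stub1, the Y-linked genes, the marker genes and the values of Mal2 in KO liver. Alternatives were a replicate block, 1 fit of 9 arrays, an intensity trend, dim genes left out, 75th percentile scaling, repeated quantile normalization, probe set means, array weights, each replicate left out, adjusted p under 0.10 and at least a 2-fold change.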

Additional observations from a re-analysis of the deposited data

How the results depend on the processing

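Of the 6 keratins, 5 passed in each comparison with the AS lines and 0 between the livers. Over KO liver, leaving out 1 replicate gave 3 to 5 keratins called; over WT liver 5 to 5, with 3 under 1 fit of all 9 arrays; between the livers 0 to 2, with 3 under array weights. Krt23 against WT liver turned from 0.02 to -0.11 with 75th percentile scaling, -0.05 and -0.07 without WT replicate 2 and 3, and -0.03 and -0.16 without line 2 and 3 (range with 1 replicate left out -0.16 to 0.26), and Krt20 between the livers to 0.03 with repeated quantile normalization; albumin against KO liver turned from -0.24 to 0.03 with array weights, 0.10 without KO replicate 2 and 0.07 without line 1 (range -0.76 to 0.10). Upk2 against KO liver, near 0 (adjusted p = 0.978), turned to 0.02 with 75th percentile scaling, 0.08 with repeated quantile normalization, 0.04 with array weights and 0.03, 0.05 and 0.01 without KO replicate 2, line 1 and line 2. None of these values passed the threshold, and the cause was not tested. With the replicate number as a block, 4 keratins were called over KO liver, 5 over WT liver and 0 between the livers, Krt18 over KO liver at adjusted p = 0.0646. Whether the numbers pair the arrays is not settled. Deviations of same-numbered arrays correlated at -0.39 to 0.43, and not every array correlated best with its own number. With 3 arrays per group these correlations are too few to decide it.

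Over all genes, 0 passed between the livers, but 5744 did with array weights, 1949 without KO replicate 2, 366 at adjusted p under 0.10, 60 without WT replicate 1 and 2 under 1 fit of 9 arrays. Over KO liver 4275 passed, 2281 and 2310 without KO replicate 1 and 3 and 2638 at 2-fold or more; over WT liver 5715, and 3397, 3556 and 3492 without WT replicate 2, without WT replicate 3 and at 2-fold or more. With 75th percentile scaling the all-gene median difference was -0.16 between the livers and -0.11 for lines against WT liver, and with dim genes left out 0.18 and 0.29. Of 2397 values of other named genes under the alternatives, 2141 kept direction and side of the threshold, 163 lost and 84 gained a call, and 9 turned sign. Signal near background limits Krt23 and the liver values of Krt7, Krt19 and Krt20.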
